A study of Mus musculus with 16 samples.

Results

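Oxidative phosphorylation is carried out in the inner mitochondrial membrane by 5 protein complexes. Complex I (NADH dehydrogenase), complex II (succinate dehydrogenase), complex III (the cytochrome bc1 complex) and complex IV (cytochrome c oxidase) pass electrons to oxygen, and complex V is the ATP synthase. Most subunits are encoded in the nucleus and a small core is encoded in mitochondrial DNA, so the 2 genomes have to supply one machine. Retina is known for a high demand for this pathway, above all in the photoreceptor inner segments, where mitochondria are packed, and in the unmyelinated stretch of the ganglion cell axons. The nuclear subunit genes were chosen by name only, as protein-coding mouse genes whose symbols begin with Ndufa, Ndufb, Ndufc, Ndufs or Ndufv (assembly factors Ndufaf left out), Uqcr, Cox4i, Cox5, Cox6a, Cox6b, Cox6c, Cox7, Cox8 or Atp5, together with Sdha, Sdhb, Sdhc, Sdhd and Cyc1. This gave 89 genes of 36528 listed identifiers, all of them with values in every library: 41 of complex I, 4 of complex II, 9 of complex III, 18 of complex IV and 17 of complex V. Ndufa4 and Ndufa4l2 were counted with complex I by their symbols, although Ndufa4 protein is known as a component of complex IV.

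The 16 libraries were bulk poly(A) RNA-seq of mouse retina taken 3 days after crush of the optic nerve, which damages the axons of retinal ganglion cells and leads to the death of many of them. There were 5 crushed and 5 uncrushed retinas from mice given DLKi, the compound GNE-3511 at 75 mg/kg, dosed 60 h and 68 h after the crush, and 3 crushed and 3 uncrushed retinas from mice given vehicle (MCT) in its place. GNE-3511 inhibits DLK, a kinase that carries the axon injury signal to the ganglion cell nucleus. The labels give no strain, sex or age. They state 5 mice per drug but not which retinas share a mouse, and every p-value here speaks only for the variation among these libraries, part of which may be technical.

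Libraries held 22.4 to 44.7 M counted reads, and the 89 genes took 0.601% to 0.814% of them. Of the ganglion cell markers, 10 of 13 fell with crush under DLKi and 9 of 13 under vehicle, and of the microglial markers 7 of 8 and 4 of 8 rose, by edgeR's quasi-likelihood test at an adjusted p of 0.05. Rod markers summed to 58110 to 74540 CPM (counts scaled to the library total) in all libraries, as is usual for retina. A pair of vehicle libraries, uncrushed replicate 1 and crushed replicate 3, were the shallowest, and uncrushed replicate 1 had 4.49% of its reads on mitochondrially encoded mRNAs, against 2.00% to 3.10% in the other 15. The members' medians and the changes of Cox6a2, Sdha and Ndufa10 are also given without this pair.

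Levels are given as the authors' nRPKM, an RPKM (reads scaled to gene length and library depth) further scaled by a size factor per library, which lets genes be compared per length. Atp5b, the catalytic beta subunit of ATP synthase, had the highest level of the 89, at 527.9 ± 29.7 nRPKM in crushed DLKi, 571.1 ± 43.7 in uncrushed DLKi, 466.4 ± 31.9 in crushed vehicle and 509.2 ± 29.4 in uncrushed vehicle retinas (SD, n = 5, 5, 3 and 3). As a mean over the 4 groups, 72 of the 89 genes reached 10 nRPKM and 17 reached 100 nRPKM. Complex I was led by Ndufb9 at 121.4 nRPKM with a median of 39.8, and complex II by the flavoprotein Sdha at 116.8 with a median of 55.9. Complex III was led by the core protein Uqcrc1 at 116.0 nRPKM with a median of 69.6, and complex IV by Cox4i1 at 228.5 with a median of 21.0. Complex V had a median of 70.1 nRPKM. The genes below 10 nRPKM included the tissue isoforms Cox6a2, Cox6b2, Cox7a1 and Cox8b. Of the 18 complex IV genes 7 were below it, Cox7c at 7.61 nRPKM among them. None of the 4 complex II genes was, and 1 of the 9 complex III genes was, Uqcrb at 9.48 nRPKM. In complex I 35 of 41 genes reached 10 nRPKM, and in complex V 14 of 17 did.

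**Figure D1:**
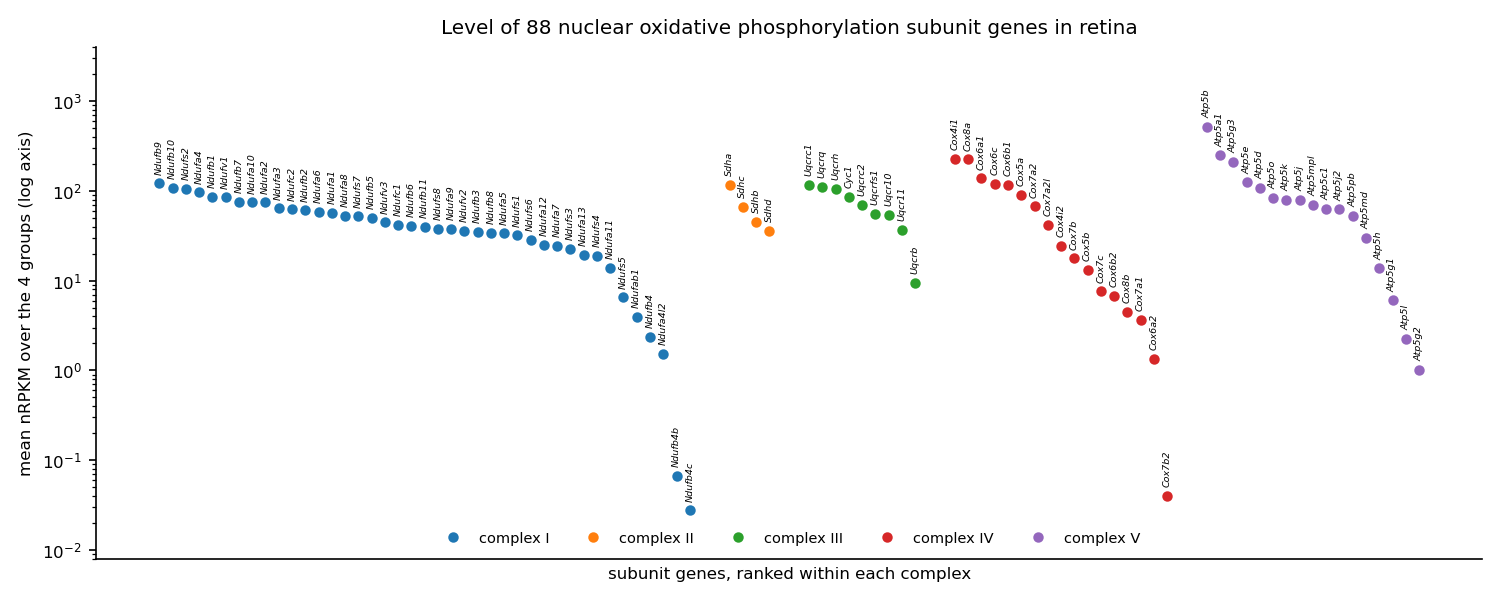
Mean nRPKM over the 4 groups (log axis) for each subunit gene, ranked within its complex (colours). Atp5b stands highest at 518.7 nRPKM, 72 of the 89 genes reach 10 nRPKM, and the low tail of complex IV holds Cox7a1, Cox6a2 and Cox7b2. Cox8c, listed at 0, cannot be drawn on a log axis and is left out.

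Counting rules bear on some of these levels. The authors counted reads that align at a single place, so a gene with copies elsewhere in the genome can lose reads, while a read from a stretch that 2 overlapping genes share aligns at 1 place but belongs to either. Among 86 of the 89 genes matched to the GENCODE M21 transcripts, the median share of 50-base stretches found in another gene's transcripts was 1.77%, but it was 38.3% for Atp5g2, 25.5% for Uqcrb, 22.1% for Cox7c and 21.7% for Ndufs5, which share them with genes elsewhere. It was 41.6% for Atp5o, 31.6% for Ndufb6 and 28.5% for Ndufa13, of whose exon bases 47.9%, 39.0% and 30.0% are overlapped by other annotated genes. For Atp5o the overlapping and sharing genes include another GENCODE entry of the same symbol, so its shares may be overstated. Levels of the genes named here are uncertain. Because the libraries are unstranded, reads from 2 genes that overlap on opposite strands cannot be told apart.

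Several complex IV and V subunits come as isoform pairs, of which one is widespread and another belongs to particular tissues. The widespread member led every such set in all 4 groups. Cox4i2, the isoform known from lung, made up 9.22% ± 0.94, 10.3% ± 0.85, 9.96% ± 1.22 and 9.32% ± 1.96 of the Cox4i level in crushed DLKi, uncrushed DLKi, crushed vehicle and uncrushed vehicle retinas (SD, n = 5, 5, 3 and 3). Cox6b2, the testis isoform, made up 4.53% and 4.88% of its pair in crushed and uncrushed DLKi retinas and 6.16% and 6.21% in crushed and uncrushed vehicle retinas. The crushed DLKi share of Cox6b2 was lower than the crushed vehicle share by 1.62 percentage points (exact permutation test, two-sided, p = 0.0357, n = 5 and 3), which did not pass after Benjamini-Hochberg adjustment over the 32 isoform comparisons made (adjusted p = 0.533).

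Cox7a1 and Cox8b are isoforms known from heart and skeletal muscle. Cox7a1 made up 2.66%, 3.03%, 2.86% and 4.30% of the summed Cox7a1, Cox7a2 and Cox7a2l level in the 4 groups in the same order. Leaving Cox7a2l out of the sum would make these shares larger. Cox8b made up 1.53%, 1.53%, 1.98% and 2.65% of the summed Cox8a, Cox8b and Cox8c level. Cox8b varied more between retinas of one group than any other tested member, with a within-group SD of 1.02 on the log2 CPM scale against a median of 0.16 over the members. Ndufa4l2, a relative of Ndufa4 known to be induced by low oxygen, stayed at 1.52% to 1.66% of that pair. The ATP synthase c-ring protein is encoded by 3 genes, of which Atp5g3 dominated; Atp5g1 made up 2.62% to 2.96% and Atp5g2 0.445% to 0.507% in the group means.

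A few genes had next to no counted reads. Cox8c, a testis isoform, had 0 reads in all 16 libraries, where 3 of 547039620 counts, or 0.00548 CPM, is the limit that a count of 0 allows (counting error only). Cox7b2, Ndufb4b and Ndufb4c averaged 0.040, 0.067 and 0.028 nRPKM over the groups. These 4 genes did not pass the filter on low counts, and all counts of tested members are over the other 85. Ndufb4b and Ndufb4c were not matched to the GENCODE transcripts, so the stretches they share with other genes were not measured. Ndufb4 shares 18.3% of its 50-base stretches with other genes, Ndufb4c among them. How far unique counting lowers the levels of Ndufb4b and Ndufb4c was not tested.

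Crush was compared with no crush separately under each drug. Cox6a2 was the one member called in either comparison. It encodes the heart and skeletal muscle isoform of subunit VIa, a small regulatory subunit of cytochrome c oxidase, and lies on the minus strand at chr7:128205435-128206387 (GRCm38, GENCODE M21). Its level was 2.75, 3.19, 1.74, 2.59 and 1.84 nRPKM in crushed DLKi retinas, against 0.429, 0.421, 0.742, 0.425 and 0.409 nRPKM in uncrushed DLKi retinas. In vehicle mice it was 2.07, 2.20 and 2.21 nRPKM in crushed retinas, against 0.233, 0.400 and 0.409 nRPKM in uncrushed retinas. Every crushed retina was above every uncrushed one, with a gap between 0.742 and 1.74 nRPKM.

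By edgeR's quasi-likelihood test with Benjamini-Hochberg adjustment over 19391 genes, Cox6a2 rose 4.95-fold with crush under DLKi (log2 change 2.31 ± 0.22 SE, adjusted p = 4.51e-06, higher in 5 of 5 retinas). Under vehicle it rose 5.94-fold (log2 change 2.57 ± 0.31 SE, adjusted p = 8.65e-05, higher in 3 of 3). The difference between these crush effects, DLKi minus vehicle, was -0.26 with a 95% interval of -1.08 to 0.55 on the log2 scale (edgeR adjusted p = 0.9998). Between drugs, Cox6a2 differed by 0.17 (interval -0.30 to 0.63) in crushed retinas and by 0.43 (interval -0.25 to 1.11) in uncrushed retinas, DLKi minus vehicle, and neither passed the test. Without the pair of shallow vehicle libraries the vehicle crush effect was 2.39 (edgeR adjusted p = 0.00185). The call held in every alternative run.

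The level is low. Cox6a2 had 44 to 89 counts in crushed DLKi, 10 to 22 in uncrushed DLKi, 44 to 62 in crushed vehicle and 4 to 12 in uncrushed vehicle libraries. Its partner Cox6a1, the widespread isoform, had 136.1 ± 13.2, 154.2 ± 15.6, 126.1 ± 11.9 and 133.3 ± 4.2 nRPKM in the same groups and was called in no comparison. Cox6a2 therefore made up 1.74% ± 0.35 of the pair in crushed DLKi retinas, against 0.311% ± 0.066 in uncrushed DLKi retinas (exact permutation test, two-sided, p = 0.00794, the smallest that 5 against 5 can give). In vehicle mice the share was 1.69% ± 0.10 in crushed retinas, against 0.261% ± 0.079 in uncrushed retinas (exact permutation p = 0.1, the smallest that 3 against 3 can give). Adjusted over the 32 isoform comparisons these were 0.254 and 0.533.

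The coding sequences of this isoform pair are shown because unique counting can separate the 2 genes only where they differ; they were read from the GENCODE M21 transcripts of GRCm38, 5′ to 3′, with the longest run of bases common to both in capitals.
Cox6a2: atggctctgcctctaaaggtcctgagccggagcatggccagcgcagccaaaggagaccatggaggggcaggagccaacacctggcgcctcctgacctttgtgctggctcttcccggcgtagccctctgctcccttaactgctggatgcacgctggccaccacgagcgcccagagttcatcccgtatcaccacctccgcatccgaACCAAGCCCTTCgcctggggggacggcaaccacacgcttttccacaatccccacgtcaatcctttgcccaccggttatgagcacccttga
Cox6a1: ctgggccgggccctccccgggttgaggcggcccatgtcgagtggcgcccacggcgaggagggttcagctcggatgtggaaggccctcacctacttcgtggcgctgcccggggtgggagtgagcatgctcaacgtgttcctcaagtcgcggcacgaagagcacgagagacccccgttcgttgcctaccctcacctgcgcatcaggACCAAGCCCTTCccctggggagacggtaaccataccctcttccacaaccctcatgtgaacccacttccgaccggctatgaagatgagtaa
The Cox6a2 sequence is whole and the Cox6a1 sequence is shown from base 46 to its end. They are 294 and 339 bases long and 62.6% identical over 294 aligned bases. The longest common run is 12 bases, shorter than the 50-base reads, so no read within the coding parts matches both exactly. No 50-base stretch of the Cox6a2 transcript occurs in Cox6a1; 3.33% of them occur in Itgad, a leukocyte integrin gene on the opposite strand whose exons overlap 10.3% of the Cox6a2 exon bases.

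Several other measures moved with the Cox6a2 level. Itgad itself had 7 to 19 counts in crushed DLKi, 1 to 3 in uncrushed DLKi, 7 to 10 in crushed vehicle and 0 to 1 in uncrushed vehicle libraries. If every Itgad count is taken away from Cox6a2, 37 to 70, 9 to 20, 34 to 55 and 4 to 11 counts remain in these groups. Crushed and uncrushed libraries do not overlap in these remainders. Reads from Itgad that were counted for Cox6a2 need not be in the Itgad count, so the subtraction does not measure them. The part of Itgad in the Cox6a2 result was not tested. The 8 microglial markers summed to 58.8 to 117.5 CPM in crushed DLKi, 37.2 to 56.8 in uncrushed DLKi, 77.5 to 96.1 in crushed vehicle and 48.3 to 50.2 in uncrushed vehicle libraries, and their part in the Cox6a2 result was not tested. In bulk tissue, a change in the number of cells of a type and a change in RNA per cell cannot be told apart.

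The 11 skeletal and cardiac muscle markers were flat. They summed to 9.8 to 10.2, 9.0 to 11.9, 9.6 to 12 and 10.6 to 11.4 CPM in crushed DLKi, uncrushed DLKi, crushed vehicle and uncrushed vehicle libraries. The fast myosin genes Myh1, Myh2 and Myh4 had 0 to 3 counts in any library. Of the 6 muscle markers that passed the filter, none was called by edgeR or DESeq2 and none had an unadjusted p under 0.05 in either crush comparison. The other muscle isoforms of complex IV did not pass the test with crush: log2 changes were -0.30 ± 0.26 under DLKi and -0.71 ± 0.34 under vehicle for Cox7a1, and -0.12 ± 0.54 and -0.46 ± 0.68 for Cox8b (SE).

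**Figure D2:**
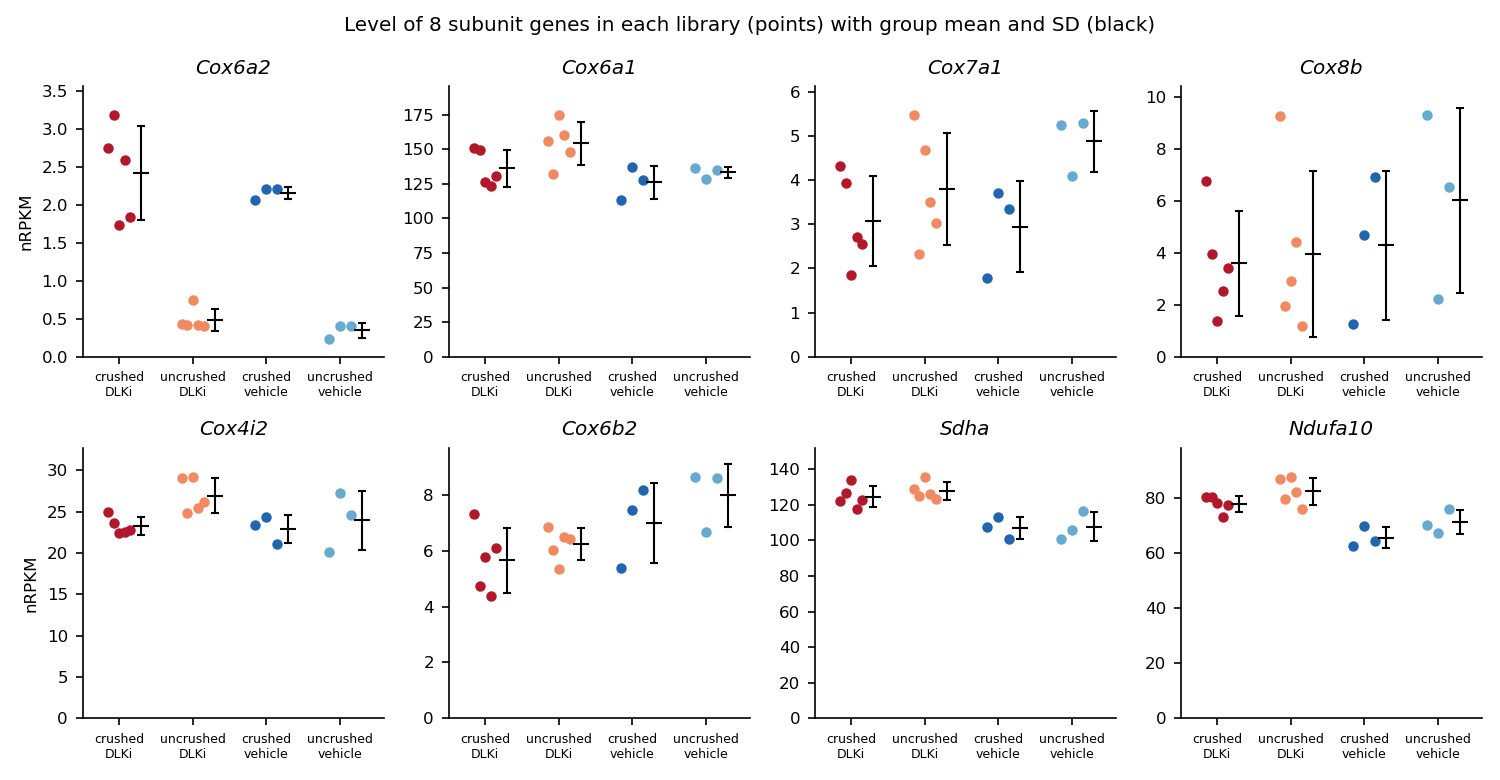
nRPKM of 8 subunit genes in each library (coloured points) with the group mean and SD in black, for crushed and uncrushed DLKi and crushed and uncrushed vehicle retinas. Crushed retinas have 1.74 to 3.19 nRPKM of Cox6a2 and uncrushed retinas 0.233 to 0.742, while Cox6a1, Cox7a1, Cox8b, Cox4i2 and Cox6b2 overlap between crushed and uncrushed DLKi retinas. Under vehicle Cox7a1 does not overlap, at 1.78 to 3.71 nRPKM in crushed and 4.09 to 5.29 in uncrushed retinas.

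The other 84 tested subunits showed small changes with crush. Under DLKi, 1 of 85 members was called, Cox6a2, against 5.33% of all genes tested, with 3.29% of all genes called higher and 2.04% lower. Under vehicle it was again 1 of 85, against 2.63% of all genes, 1.77% higher and 0.861% lower. Cox6a2 and 3 others in each comparison had an unadjusted p under 0.05, where 14.4% of all genes did under DLKi and 10.4% under vehicle. DESeq2 also called Cox6a2 alone of the members, against 6.79% and 3.71% of all genes. The members leaned to one side: 76 of 85 log2 changes were negative under DLKi and 78 of 85 under vehicle, with medians of -0.07 and -0.12. Over all tested genes the medians were -0.001 and -0.003, and 50.4% and 50.8% were negative. These medians are smaller than the pooled within-group SD of 0.151 of the members' mean log2 CPM. That SD is a spread of single libraries and larger than the error of a difference between group means.

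The sizes of these medians depended on single libraries, while both stayed negative. Under DLKi the median was -0.03 without crushed DLKi replicate 4, -0.04 and -0.03 without uncrushed DLKi replicates 1 and 3, and -0.11 without crushed DLKi replicate 1, crushed DLKi replicate 2 or uncrushed DLKi replicate 2. Under vehicle it was -0.05 without crushed vehicle replicate 1, -0.19 without crushed vehicle replicate 2 and -0.09 without the pair of shallow libraries. Lens and pigment epithelium markers moved in the same direction in both comparisons. All 8 lens markers had negative log2 changes, with medians of -3.14 under DLKi and -3.69 under vehicle. All 7 pigment epithelium markers did too, with medians of -0.23 and -0.70, and none of them was called. The 8 lens markers summed to 3.74 to 25.3 CPM in crushed DLKi, 16.6 to 658.8 in uncrushed DLKi, 1.72 to 23.1 in crushed vehicle and 2.13 to 306.1 in uncrushed vehicle libraries. By edgeR 5 of the 8 were called lower with crush under DLKi and 0 under vehicle, and of the 10 rod markers 0 and 1 were. The part of lens, pigment epithelium, rod and ganglion cell RNA in the members' changes was not tested.

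By complex, the median log2 change with crush under DLKi and under vehicle was -0.07 and -0.12 for complex I, -0.04 and -0.02 for complex II, -0.05 and -0.11 for complex III, -0.13 and -0.13 for complex IV, and -0.05 and -0.14 for complex V. Complex II, which has no mitochondrially encoded subunit, had the median nearest to 0 in both. All 9 complex III genes and all 17 complex V genes were negative under vehicle, and 7 of 9 and 16 of 17 were negative under DLKi. The 1586 other tested genes under 1 kb, a length like that of most subunit genes, had medians of -0.001 under DLKi and -0.04 under vehicle.

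Apart from Cox6a2, the smallest p under vehicle belonged to Ndufa4 (91.1 ± 8.6 nRPKM in crushed DLKi, 100.8 ± 6.2 in uncrushed DLKi, 85.9 ± 7.1 in crushed vehicle and 106.8 ± 15.8 in uncrushed vehicle retinas). The vehicle change was -0.31 ± 0.11 SE (edgeR adjusted p = 0.177). Uqcrh, the hinge protein of complex III, had -0.32 ± 0.16, Atp5k, the e subunit of ATP synthase, -0.30 ± 0.16, and the complex II anchor Sdhd -0.16 ± 0.13, with adjusted p of 0.547, 0.563 and 0.843 by edgeR. Under DLKi, Ndufs8, an iron-sulfur subunit of complex I, had -0.17 ± 0.08, Cyc1, cytochrome c1, -0.09 ± 0.07, Atp5b -0.11 ± 0.07 and Sdhd 0.08 ± 0.10, with edgeR adjusted p between 0.366 and 0.847.

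The titles' library numbers place 1 crushed and 1 uncrushed retina of the same drug side by side, and what this adjacency stands for is not stated. With adjacent numbers as a block, an alternative chosen after seeing the data, Ndufa4 (-0.31 ± 0.07) and Uqcrh (-0.33 ± 0.09) passed under vehicle (SE; edgeR adjusted p = 0.0158 and 0.0496). Under DLKi, Cox4i2 (-0.21 ± 0.06) and Cox5a (-0.17 ± 0.05) passed with the block (edgeR adjusted p = 0.0328 and 0.0449), against 0.176 and 0.238 without it. The members at an unadjusted p under 0.05 were then 17 under DLKi and 19 under vehicle, in place of 4 and 4, and 10.7% and 6.36% of all genes were called.

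Under vehicle, 10 members had all 3 crushed retinas below all 3 uncrushed ones, or 11.8% of 85, where the same held for 4.75% of all genes tested; they were Ndufa1, Ndufa4, Ndufb8, Ndufc2, Ndufs1, Ndufs3, Cox6c, Cox7a1, Atp5pb and Atp5l. Under DLKi no member had all 5 crushed retinas below all 5 uncrushed ones (3.30% of all genes). Cox6a2 alone was higher in every crushed retina in both, against 8.13% of all genes under vehicle and 3.40% under DLKi.

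**Figure D3:**
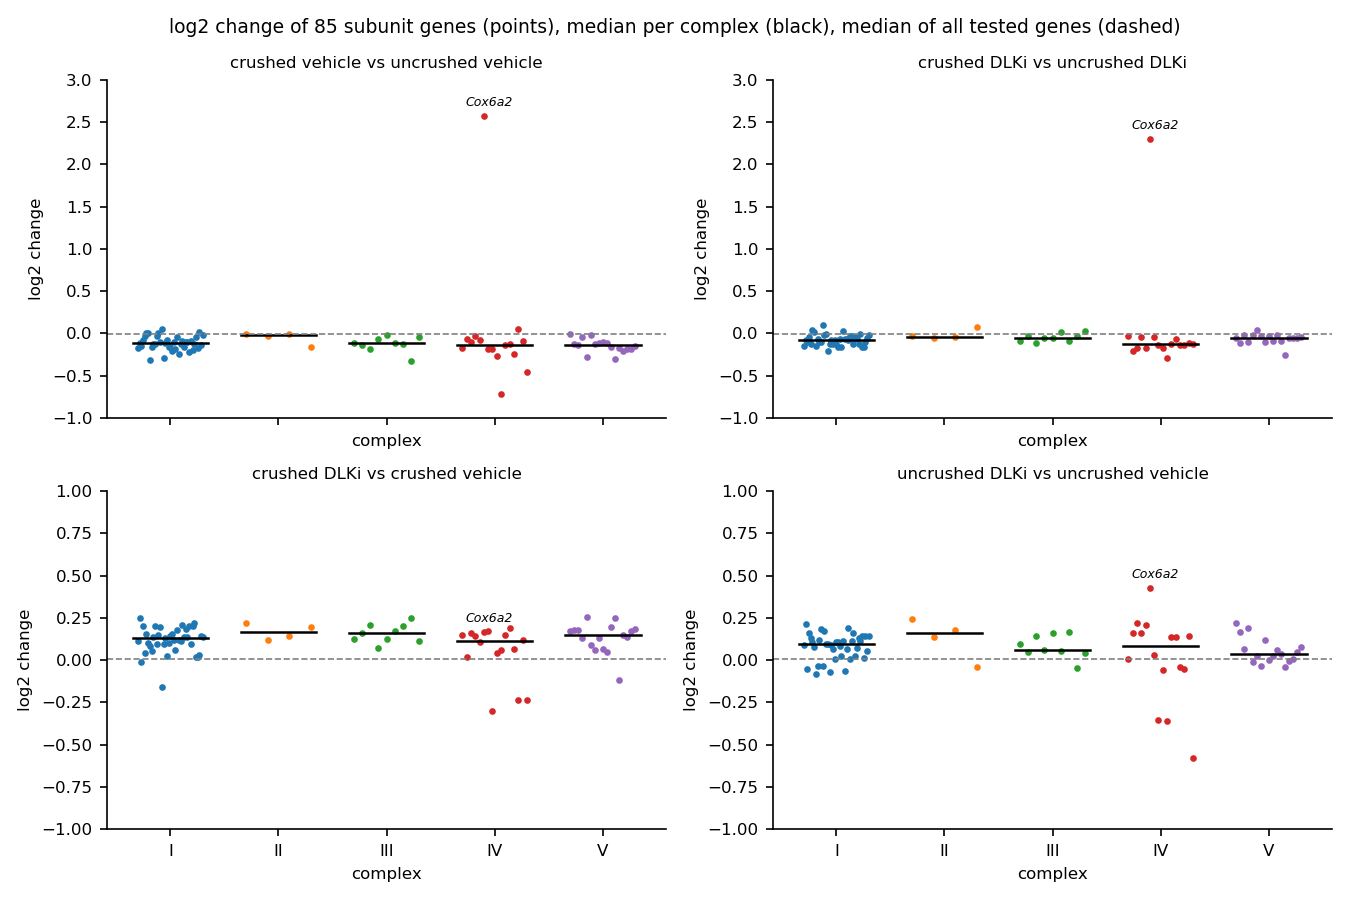
log2 change of each of the 85 tested subunit genes (points) by complex in the 4 comparisons, with the median of each complex (black line) and of all tested genes (dashed line); the upper and lower panels have different vertical scales. Cox6a2 stands at 2.57 and 2.31 in the crush comparisons, while the other members lie between -0.71 and 0.10.

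The drug was compared with vehicle separately in crushed and in uncrushed retinas, which share no library. These retinas may come from the same mice, as the labels do not say which share a mouse. All groups also share a common fit, so agreement between the comparisons is not independent. In crushed retinas no member was called by edgeR (0.505% of all genes were, 0.129% higher and 0.376% lower), 11 of 85 had an unadjusted p under 0.05 (13.7% of all genes did), and DESeq2 called 3, Ndufa10, Ndufs1 and Sdha, against 2.16% of all genes. In uncrushed retinas edgeR again called none (0.629% of all genes, 0.263% higher and 0.366% lower), 10 had an unadjusted p under 0.05 (17.3% of all genes), and DESeq2 called 2, Ndufa10 and Sdha, against 3.22%. The members leaned upward with DLKi: 79 of 85 were positive in crushed retinas with a median of 0.14, and 67 of 85 in uncrushed retinas with a median of 0.08, where all tested genes had a median of 0.01 in both. The crushed median was 0.05 without crushed vehicle replicate 1, with 63 of 85 positive. The uncrushed median was 0.04 and 0.03 without uncrushed DLKi replicates 1 and 3, 0.05 without uncrushed vehicle replicate 3, 0.12 without uncrushed vehicle replicate 1 and 0.04 with upper-quartile scaling. With library numbers, split into lower and higher, as a covariate, the medians were 0.09 in crushed and 0.02 in uncrushed retinas. In that fit, chosen after seeing the data, 70 and 49 of 85 were positive. Without the pair of shallow vehicle libraries the medians were 0.15 and 0.12, and 5 and 3 members had an unadjusted p under 0.05.

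Sdha and Ndufa10 had the smallest p in both. Sdha, the flavoprotein that oxidises succinate, had 122.3, 126.5, 133.9, 117.5 and 122.9 nRPKM in crushed DLKi retinas, against 107.3, 113.3 and 100.7 in crushed vehicle retinas. In uncrushed retinas it had 128.7, 124.8, 135.9, 126.3 and 123.0 nRPKM with DLKi, against 100.6, 105.8 and 116.5 with vehicle. The groups did not overlap in either case. The log2 difference was 0.22 ± 0.06 SE in crushed retinas (edgeR adjusted p = 0.147, DESeq2 adjusted p = 0.0267) and 0.25 ± 0.06 in uncrushed retinas (edgeR adjusted p = 0.0943, DESeq2 adjusted p = 0.00579). Without the pair of shallow libraries these differences were 0.18 and 0.20 (edgeR adjusted p = 0.365 and 0.301).

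Ndufa10, an accessory subunit of the complex I membrane arm, had 80.4, 80.3, 78.1, 73.2 and 77.3 nRPKM in crushed DLKi retinas, against 62.4, 69.9 and 64.4 in crushed vehicle retinas. In uncrushed retinas it had 86.7, 79.5, 87.7, 82.2 and 76.1 nRPKM with DLKi, against 70.2, 67.2 and 75.9 with vehicle. Again the groups did not overlap, although the uncrushed ones nearly met. The log2 differences were 0.25 ± 0.06 (edgeR adjusted p = 0.0942) and 0.21 ± 0.06 (edgeR adjusted p = 0.126), and DESeq2 gave adjusted p of 0.0111 and 0.0309. They were 0.24 and 0.20 without the pair of shallow libraries (edgeR adjusted p = 0.261 and 0.352). In crushed retinas 4 of 85 members, Ndufa10, Sdha, Ndufs1 and Atp5pb, were higher in every DLKi retina, or 4.71%, where 4.68% of all genes were. In uncrushed retinas 4 were, Sdha, Ndufa10, Cox5a and, by less than the digits given above, Cox6a2, where 5.24% of all genes were. No member was lower in every DLKi retina, against 4.87% of all genes in crushed and 4.31% in uncrushed retinas.

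Other members with the smallest p of their complex were Uqcrfs1, the Rieske iron-sulfur protein of complex III, at 0.20 ± 0.09 in crushed and 0.17 ± 0.09 in uncrushed retinas, and Cox7a2l, a factor in respiratory supercomplexes, at 0.19 ± 0.09 in crushed retinas. Atp5b had 0.18 ± 0.08 in crushed retinas. Cox5a had 0.22 ± 0.08 and Atp5a1, the alpha subunit of ATP synthase, 0.22 ± 0.08 in uncrushed retinas. None of these passed the edgeR test at an adjusted p of 0.05 (adjusted p 0.183 to 0.343). Against the trend, Cox6b2 was at -0.30 ± 0.17 in crushed and -0.35 ± 0.17 in uncrushed retinas.

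Over the 10 rod markers the median log2 difference, DLKi minus vehicle, was 0.04 in crushed and -0.02 in uncrushed retinas. Other marker sets differed more. For the 13 ganglion cell markers it was 0.33 and 0.30, all 13 being positive in both. Of these, edgeR called 3 higher in crushed retinas. Pigment epithelium markers had -0.32 and -0.74, with 6 and 7 of 7 negative. Lens markers had 0.57 and 1.2, with 7 of 8 positive in both. Microglial markers had -0.01 and -0.20. The part of cell composition in the subunit differences was not tested.

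No member was called for a difference between the crush effect with DLKi and the crush effect with vehicle (0.0103% of all genes were called), none had an unadjusted p under 0.05 (1.54% of all genes did), and DESeq2 called none (0.0258% of all genes). The median difference over the 85 members was 0.04, with 63 positive, and lay between -0.03, without crushed vehicle replicate 1, and 0.11, without crushed vehicle replicate 2. It was -0.02 for complex II and 0.10 for complex V. The smallest p belonged to Sdhd, at 0.24 with a 95% interval of -0.10 to 0.57.

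The 5 complexes tended to be high or low in the same libraries, and the groups overlapped. The titles carry library numbers, and the 16 libraries fall into 8 with lower and 8 with higher numbers, each holding crushed and uncrushed retinas of both drugs. This split was chosen after seeing the data, so the difference between its sets is a description only. The 85 members were higher in the higher-numbered libraries by a median of 0.193 log2 CPM, with 83 of 85 positive, against 0.018 over all tested genes and 0.024 over other genes under 1 kb. The 89 genes took 0.707% to 0.814% of reads in the 8 higher-numbered libraries and 0.601% to 0.705% in the 8 lower-numbered ones, with no overlap. The shares of complexes I, II, III and IV each overlapped, and that of complex V did not. The members' mean log2 CPM also overlapped, at 5.12 to 5.43 in higher-numbered and 4.93 to 5.29 in lower-numbered libraries. Mitochondrially encoded mRNAs took 2.00% to 2.52% and 2.22% to 4.49%, so they were not higher where the nuclear subunits were. What the numbers stand for is not stated in the labels.

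Vehicle libraries were spread unevenly over the numbers, with 1 crushed and 1 uncrushed among the higher and 2 of each among the lower. Within the higher-numbered libraries the median member difference, DLKi minus vehicle, was 0.08 in crushed retinas (3 and 1 libraries) and 0.21 in uncrushed retinas (3 and 1). Within the lower-numbered libraries it was 0.06 in crushed (2 and 2) and -0.12 in uncrushed retinas (2 and 2), so the direction in uncrushed retinas did not hold within both. For crush under DLKi the within-set medians were -0.10 (3 and 3) and -0.04 (2 and 2) for higher and lower numbers, and for crush under vehicle 0.02 (1 and 1) and -0.19 (2 and 2). Cox6a2 was 4.81 and 5.34 times higher with crush under DLKi and 5.39 and 6.75 times higher under vehicle within the higher-numbered and lower-numbered libraries.

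**Figure D4:**
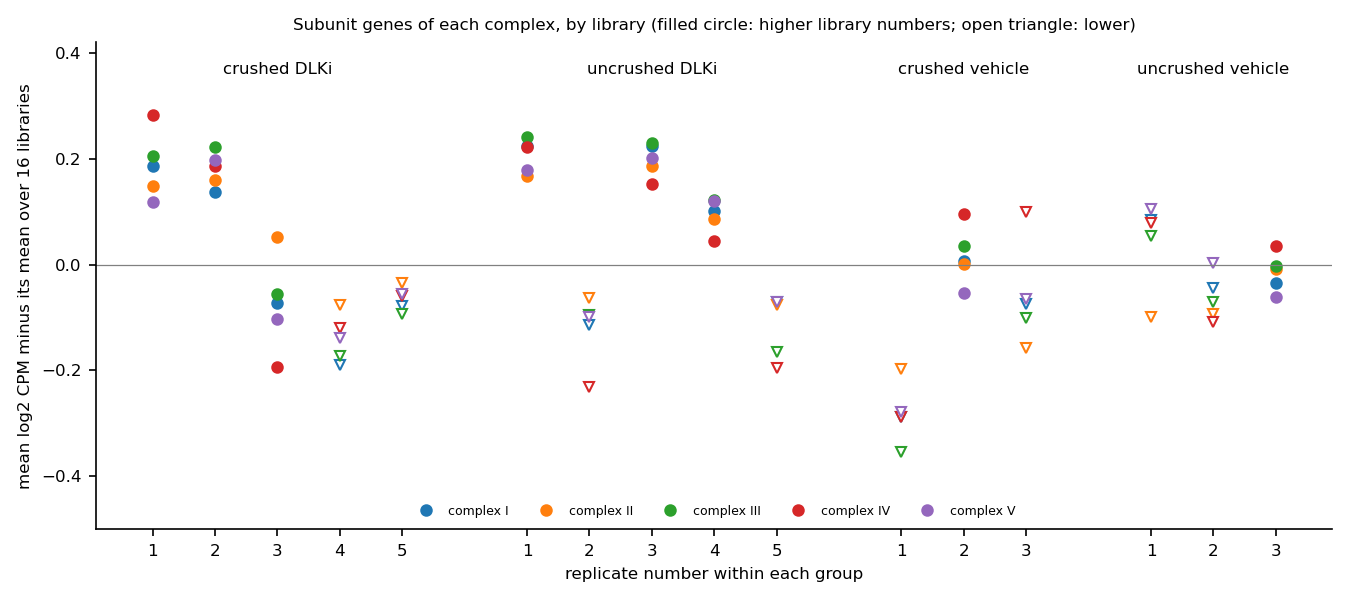
Mean log2 CPM of the tested genes of each complex (colours) minus its own mean over the 16 libraries, by group and replicate; filled circles are the 8 libraries with higher numbers and open triangles the 8 with lower numbers. The 5 complexes mostly move together within a library, and the groups overlap.

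Gene lists around the subunits were examined in the same fits. Of the 13 mitochondrially encoded mRNAs, 11 passed the filter and none was called by edgeR or DESeq2 in any comparison; 6 had an unadjusted p under 0.05 for DLKi against vehicle in uncrushed retinas and none in the others. Their median log2 change with crush was -0.13 under DLKi and -0.28 under vehicle. DLKi minus vehicle, it was -0.19 in crushed and -0.36 in uncrushed retinas. Uncrushed vehicle replicate 1, the library with 4.49% of its reads on these mRNAs, enters the vehicle crush and the uncrushed drug medians. Without it they were 0.05 and -0.04, so the vehicle crush median changed sign, and none of the 11 had an unadjusted p under 0.05. Without uncrushed vehicle replicate 3 they were -0.48 and -0.54, and the vehicle crush median was -0.17 without crushed vehicle replicate 2. The crushed drug median was -0.06 without crushed vehicle replicate 1 and -0.31 without crushed vehicle replicate 2, and the DLKi crush median was -0.07 without crushed DLKi replicate 3 and -0.03 without uncrushed DLKi replicate 5.

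None of the 48 assembly factors, 20 regulators of mitochondrial gene expression (among them Ppargc1a, Nrf1, Gabpa, Esrra and Tfam) or 18 citrate cycle genes was called by edgeR in any comparison with all 16 libraries; 0 to 8 of each list had an unadjusted p under 0.05. DESeq2 called Higd1a with crush under DLKi and Esrrb with crush under vehicle, and no other gene of these 3 lists. Assembly factors leaned upward with DLKi like the subunits, with medians of 0.11 in crushed and 0.08 in uncrushed retinas, 43 and 36 of 48 being positive. The crushed median was 0.07 without crushed DLKi replicate 2. The uncrushed median was 0.05 without uncrushed DLKi replicate 3 or uncrushed vehicle replicate 2, and 0.04 without uncrushed vehicle replicate 3. Citrate cycle genes had medians of 0.09 in crushed and 0.12 in uncrushed retinas, with 14 and 13 of 18 positive. The regulators leaned the other way, with medians of -0.07 and -0.08 and 14 and 15 of 20 negative.

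Of the 22 glycolysis genes, 3 were called with crush under DLKi and 1 under vehicle. Hk1, the hexokinase that starts glycolysis and docks on mitochondria, rose in both comparisons. Its level was 200.5 ± 13.6 nRPKM in crushed DLKi retinas, against 159.6 ± 6.5 in uncrushed DLKi retinas, and 191.8 ± 7.1 in crushed vehicle retinas, against 148.2 ± 12 in uncrushed vehicle retinas (SD). The log2 change was 0.33 ± 0.06 under DLKi and 0.37 ± 0.08 under vehicle (SE; edgeR adjusted p = 0.00236 and 0.0127). No glycolysis gene was called under vehicle without the pair of shallow libraries, without crushed vehicle replicate 2, without uncrushed vehicle replicate 2 or in a fit of only the 2 vehicle groups. Under DLKi 2 others fell: Pkm, pyruvate kinase, by 0.28 ± 0.08 and Pdk1, a kinase that inhibits pyruvate dehydrogenase in the mitochondrial matrix, by 0.26 ± 0.07 on the log2 scale (edgeR adjusted p = 0.0397 and 0.0242). Leaving out single libraries left 1 to 4 of the list called under DLKi and 0 to 1 under vehicle, and adjacent library numbers as a block gave 14 and 6. Log2 changes were negative for 21 of the 22 genes under DLKi and 18 under vehicle. DLKi minus vehicle, the list had medians of 0.20 in crushed and 0.27 in uncrushed retinas, or 0.32 without crushed vehicle replicate 2 and 0.18 without uncrushed vehicle replicate 1. There edgeR called none, with 10 and 15 genes at an unadjusted p under 0.05, and DESeq2 called 4 and 7.

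Promoters of 71 of the 89 genes were found in the RefSeq table (GRCm38.p6; 250 bases before to 50 after the start). Cox6a2 was not among these 71, so its promoter was not searched. Both strands of the promoters found were searched for letters bound by factors known to act on respiratory genes. GCATGCG, the core of the NRF1 site, was in 14.1% of the 71 promoters and in 4.49% of 17492 promoters of coding genes. CCGGAAG, an ETS site as bound by GABP, was in 22.5% and 11.9%, and AAGATGG, the core of the YY1 site, in 14.1% and 6.37%. TGACGTC, the cyclic AMP response core, was in 9.86% and 4.00%. Of letters tied to injury signalling, TGANTCA, the AP-1 site, was in 9.86% and 7.08%, and TGATGNAA, the core of the ATF4 site, was in 0 of 71 and 3.69%. These shares describe letters, not binding.

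The Cox6a1 promoter, chr5:115348909-115349208 on the minus strand (GRCm38.p6), is shown because it belongs to the abundant partner of Cox6a2 and holds several of these letters; capitals mark the NRF1 letters read on both strands and then the ETS letters read on the opposite strand.
Cox6a1 promoter: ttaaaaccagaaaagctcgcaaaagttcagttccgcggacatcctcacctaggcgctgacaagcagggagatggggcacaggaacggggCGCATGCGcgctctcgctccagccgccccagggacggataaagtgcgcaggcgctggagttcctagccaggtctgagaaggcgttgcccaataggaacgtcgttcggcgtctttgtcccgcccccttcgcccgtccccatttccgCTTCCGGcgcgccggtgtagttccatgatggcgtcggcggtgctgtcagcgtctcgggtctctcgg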

How the data were processed

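Total RNA from retina was made into unstranded poly(A) libraries (TruSeq RNA) and sequenced as single 50-base reads, per the labels' protocols. The aligner was GSNAP and the build GRCm38, per the submitters' processing notes; their versions and settings are not given in the sources read. The authors' deposited counts are whole numbers of reads per Entrez gene, per the file headers, and the authors' nRPKM (an RPKM scaled by a size factor per library) stands beside them, per the file headers. Within a gene the ratio of nRPKM to count is the same in all libraries up to a library factor.

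Counts were tested with edgeR 4.0.16 (limma 3.58.1, R 4.3.3): TMM, filterByExpr over the 4 groups, 1 mean per group over all 16 libraries, two-sided quasi-likelihood tests and Benjamini-Hochberg adjustment over 19391 genes, called at 0.05. CPM were computed from the deposited counts; log2 changes are edgeR's. The procedure was tested on simulated data with known changes. DESeq2 1.42.0, other scalings, no filter, fits on 2 groups and fits without single libraries were alternatives. Isoform shares were compared with exact permutation tests (SciPy 1.17.1). Symbols came from the RefSeq table, which matched 31049 of 36528 identifiers. Members named with values were those called, the smallest p of each complex in each comparison, the highest and lowest levels, and the tissue isoforms; Ndufs1 and Atp5pb and the members whose groups do not overlap were named after their values were seen. The members and lists were chosen with earlier results of these data known. The labels state 5 mice per drug, but 3 crushed and 3 uncrushed vehicle libraries were among those analysed. The labels do not give the reason.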

Additional observations from a re-analysis of the deposited data

Results flagged for a closer look

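In groups of 5 retinas, 1 library stood far from the other 4 for 3 of the members examined, in 84 groups examined; chance alone flags about 1 in 20 groups. Cox6a2 was at 0.742 nRPKM in uncrushed DLKi replicate 3, against 0.409 to 0.429 in the other 4, and still below every crushed retina. Atp5g1, a c-ring gene of ATP synthase, was at 7.69 nRPKM in crushed DLKi replicate 2, against 5.53 to 6.12 in the other 4. Ndufb4c, a copy of a complex I subunit gene, was at 0.0536 nRPKM in crushed DLKi replicate 1, which is 1 read, and at 0 in the other 4.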

How the results depend on the processing

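As an alternative chosen after seeing the data, libraries with adjacent numbers, 1 crushed and 1 uncrushed retina of the same drug, were taken as a block: 3 members were then called with crush under each drug (Cox6a2, with Cox5a and Cox4i2 lower under DLKi and Ndufa4 and Uqcrh lower under vehicle), and 2080 genes in all under DLKi and 1234 under vehicle, against 1034 and 510. Cox6a2 kept its crush calls in all alternatives (log2 change 2.19 to 2.52 under DLKi, 2.39 to 2.68 under vehicle). DESeq2 called 3 members and 418 genes for DLKi against vehicle in crushed retinas, 2 and 625 in uncrushed retinas, and 5 genes for the difference of crush effects, against 98, 122 and 2 genes by edgeR. With the set of library numbers as a covariate, also chosen after seeing the data, 1 member was called in each drug comparison, Ndufa10 in crushed and Sdha in uncrushed retinas, with 188 and 262 genes. Without the pair of shallow vehicle libraries the drug comparisons called 53 and 11 genes and the difference of crush effects 1. In fits of only the 2 groups compared, 281 genes were called with crush under vehicle, 45 for the drug in crushed and 3 in uncrushed retinas. Leaving out single libraries gave 276 to 506 genes with crush under vehicle, 748 to 1258 under DLKi, 22 to 144 and 17 to 205 for the drug in crushed and uncrushed retinas, and 1 to 2 for the difference of crush effects; the number of members called did not change. The members' median for the difference of crush effects was -0.03 without crushed vehicle replicate 1, -0.01 without crushed DLKi replicate 1, -0.001 without crushed DLKi replicate 2 and 0.11 without crushed vehicle replicate 2, so its sign is not settled. The causes of these shifts were not tested.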
